A study of Mus musculus with 6 samples.

Results

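The genes described here are 10 inhibitors of mitogen-activated protein kinase (MAPK) signaling in mouse retinal ganglion cells (RGCs), the neurons whose axons form the optic nerve. They were taken by gene symbol from the 24060 genes of the count table and comprise the phosphatases Dusp1, Dusp4, Dusp5, Dusp6 and Dusp8, the Sprouty genes Spry1, Spry2 and Spry4, and the Spred genes Spred1 and Spred2. All 10 had enough reads to enter the test, as did 16449 genes of the table. RGCs of C57BL/6 mice were compared between embryonic day 18 (E18), when they extend axons readily, and postnatal day 5 (P5), when this capacity has declined, with 3 samples at each age. At both ages the retinas were dissociated with papain, depleted of macrophages and panned on antibodies against CD90 (Thy1), and no treatment or mutation was applied. The number of animals behind a sample is not given, so p-values measure the spread between these samples.

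MAPKs are switched on by phosphorylation at the end of a kinase relay that receptor tyrosine kinases start through Ras, Raf and MEK. ERK, the MAPK at the end of this relay, induces transcription of its own inhibitors, which is why their transcripts are widely used as readouts of the pathway. The dual-specificity phosphatases (Dusp) remove the activating phosphates from MAPKs, whereas Sprouty and Spred proteins act upstream, between the receptor and Raf. ERK also phosphorylates Elk-1, which acts with serum response factor (SRF) at CArG boxes and is the transcription factor on which the study centers.

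Sequence upstream of the start sites is shown for the 3 members in which a motif of this pathway was found. Promoters, from 250 bases before to 50 after the start (RefSeq, GRCm38.p6), were matched for 8 members, all but Dusp4 and Spry4, and 4 motifs were sought on both strands. The CRE, bound by CREB, was searched as TGACGTCA, and the CArG box by its usual consensus. Dusp1 (minus strand, chr17:26508596-26508627) held a single CRE, Dusp8 (minus strand, chr7:142095328-142095403) held 2 CREs, and Dusp5 (plus strand, chr19:53529051-53529094) held 2 CArG boxes that adjoin each other. The stretches read 5′ to 3′ on the strand of the gene, with the motifs in capitals.
Dusp1: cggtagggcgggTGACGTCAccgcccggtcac
Dusp8: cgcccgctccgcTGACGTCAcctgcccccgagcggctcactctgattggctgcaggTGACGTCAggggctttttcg
Dusp5: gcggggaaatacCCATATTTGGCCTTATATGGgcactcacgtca
The CRE letters were present in 2.31% and a CArG box in 1.45% of the 20317 promoters of genes in the table. The Ets site was searched only as the exact letters CCGGAAGT, a form that Elk-1 and its relatives bind. It occurred in 5.16% of these promoters and in 0 of the 8, but other forms of the site were not searched. The AP-1 site TGANTCA occurred in 7.22% and in 0 of the 8. A match is a stretch of letters and was not tested for binding. The gene spans given below are from GENCODE, and those of all 3 genes begin further upstream than the RefSeq starts used here. The stretches of Dusp1 and Dusp8 lie inside those spans, whereas that of Dusp5 ends before its span begins.

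The samples held 81213639 to 114512853 counted reads. All values below are CPM, read counts relative to library size, with library sizes normalized by the trimmed mean of M values (TMM), which corrects for depth and composition but not for gene length. Log2 fold changes are E18 over P5, positive where E18 is higher, and p-values are from edgeR's quasi-likelihood test, adjusted over all genes. Markers of RGCs summed to 10194 to 11705 CPM across the 6 samples, and those of microglia and macrophages to 1.79 to 3.29 CPM. Single genes of the RGC list moved both ways. Of the 14 tested, 5 passed with less at E18 and 4 with more, and log2 fold changes ran from -1.89 to 1.10. The sum therefore cannot show by itself that RGC content was equal at the 2 ages. Markers of retinal progenitors summed to 174, 106 and 29.7 CPM in E18 replicates 1, 3 and 4, against 21.1 to 28.5 CPM at P5. The sum of 12 markers of dividing cells followed the same order, although not every single marker did. Some amacrine markers also stood apart in E18 replicates 1 and 3: Tfap2b had 47.5, 119 and 1.62 CPM in E18 replicates 1, 3 and 4 and 1.02 to 1.55 CPM at P5, and Gad1 had 19.2, 35.1 and 0.486 CPM against 1.86 to 3.91 CPM. Of 10 amacrine markers tested 4 were higher at E18 and 1 was lower, while the summed level of the list, mostly Calb2 and Pax6, was 1492 to 1699 CPM at E18 and 1790 to 2005 CPM at P5. The part of these cell types in the members' values was not tested, and E18 replicate 4, where Tfap2b and Gad1 were near or below their P5 levels, is compared alone with P5 below. In bulk samples, fewer cells of a type and less RNA per cell cannot be told apart.

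Of the 10 inhibitors, 7 were higher at E18 (adjusted p under 0.05), against 20.8% of all genes tested, and 0 were lower, against 22.5%. In either direction 43.4% of all genes passed. The 7 were Dusp1, Dusp4, Dusp5, Dusp6, Dusp8, Spry1 and Spry2, and all but Dusp8 were at least 2-fold higher. Of all genes tested, 6.39% both passed and were at least 2-fold higher. Spry4, Spred1 and Spred2 did not pass. DESeq2, another count test, called 8 higher, with Spred2 added, and 0 lower. At an unadjusted p under 0.05, edgeR gave 8 higher and 1 lower, Spry4. Every E18 sample lay above every P5 sample in 8 members, against 27.6% of all genes, and below in 1 member, Spred1, against 28.5%. The median log2 fold change of the 10 genes was 1.47, and that of all genes tested was 0.00.

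**Figure D1:**
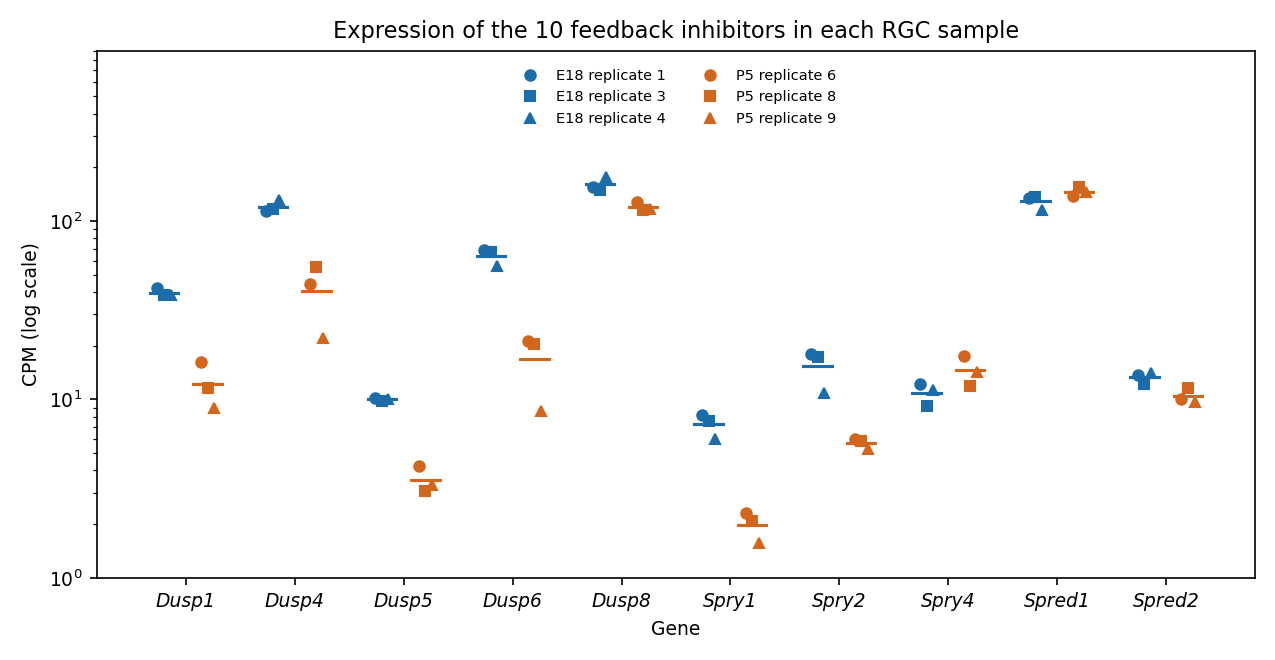
CPM on a log axis for each of the 10 genes, with a point for each sample (blue for E18, orange for P5) and a bar at the mean of each age. The E18 points of Dusp1, Dusp4, Dusp5, Dusp6, Spry1 and Spry2 stand well above the P5 points, those of Dusp8 stand slightly above, and those of Spry4 overlap. P5 replicate 9 (orange triangle) is lowest for Dusp4 at 21.98 CPM and for Dusp6 at 8.64 CPM.

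The nuclear phosphatases Dusp1, Dusp4 and Dusp5 were all higher in embryonic cells, between 2.84-fold and 3.24-fold. Dusp1, an immediate-early gene that inactivates p38 and JNK as well as ERK (ENSMUSG00000024190.7, chr17:26505590-26562128, minus strand), had 41.9, 38.5 and 38.6 CPM at E18 and 16.1, 11.6 and 8.96 CPM in P5 replicates 6, 8 and 9. The E18 samples were nearly equal, the P5 samples spread more widely, and the ages did not overlap. The E18 over P5 log2 ratio from the fit was 1.70 with an SE of 0.194 and an edgeR adjusted p of 0.000487. In the GENCODE annotation some Dusp1 exons overlap Ergic1 on the opposite strand. Counting was over RefSeq models, whose overlap was not examined, and whether strand was used is unknown. Whether reads of both genes were mixed is therefore not known. Exons of Dusp5, Dusp8 and Spry1 also overlap annotated genes of the opposite strand that are absent from the table. Ergic1 overlapped between the ages, at 136 ± 6.31 and 137 ± 9.43 CPM (SD, n = 3 samples each), with a log2 fold change of -0.02 and a 95% interval of -0.22 to 0.19.

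Dusp4, a nuclear phosphatase of ERK and JNK (ENSMUSG00000031530.6, chr8:34807297-34819894, plus strand), had the highest level per length of the nuclear enzymes at both ages. Its CPM was 114, 117 and 131 in E18 replicates 1, 3 and 4 and 44.1, 55.2 and 21.98 in P5 replicates 6, 8 and 9. No P5 sample reached the lowest E18 sample, and P5 replicate 9 was the lowest of all. The E18 over P5 log2 ratio from the fit was 1.58 with an SE of 0.278 and an edgeR adjusted p of 0.00276, and 1.28 without P5 replicate 9.

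Dusp5, the nuclear phosphatase restricted to ERK and the member with adjoining CArG boxes in the stretch printed above (ENSMUSG00000034765.6, chr19:53529109-53542431, plus strand), had the lowest level per length of the 3 nuclear enzymes. It had 10.2, 9.80 and 10.04 CPM in the E18 samples, which were the least variable of any member, and 4.22, 3.07 and 3.30 CPM in the P5 samples. The ages were apart, and the log2 ratio was 1.51 with an SE of 0.166 and an edgeR adjusted p of 0.000422. Srf itself, the partner of Elk-1 at such boxes, had 46.5 ± 5.36 CPM at E18 and 22.8 ± 2.27 CPM at P5 (SD, n = 3 samples each). It passed the same test (log2 fold change 1.03, adjusted p = 0.000567 by edgeR). Its part in the Dusp5 values was not tested.

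Dusp6 and Spry1 had the highest fold changes of the 10 genes. Dusp6 encodes the cytoplasmic phosphatase selective for ERK (ENSMUSG00000019960.8, chr10:99263231-99267489, plus strand). Its values were 68.6, 66.9 and 56.3 CPM in E18 replicates 1, 3 and 4, against 21.2, 20.5 and 8.64 CPM in P5 replicates 6, 8 and 9. All E18 samples were more than 2-fold above the highest P5 sample, and P5 replicate 9 again stood below the other P5 samples. The E18 over P5 log2 ratio from the fit was 1.93, or 3.81-fold, with an SE of 0.296 and an edgeR adjusted p of 0.00154, and 1.61 without that replicate, when Spry1 was higher at 1.72.

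Dusp8, a phosphatase of JNK and p38 rather than ERK (ENSMUSG00000037887.11, chr7:142079490-142095843, minus strand), was higher at E18 by a smaller ratio. It had 154, 150 and 177 CPM in the E18 samples and 128, 115.3 and 116 CPM in the P5 samples. The ages did not overlap, although E18 replicate 3 and P5 replicate 6 were close. The E18 over P5 log2 ratio from the fit was 0.42, or 1.34-fold, with an SE of 0.0969 and an edgeR adjusted p of 0.00907.

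**Figure D2:**
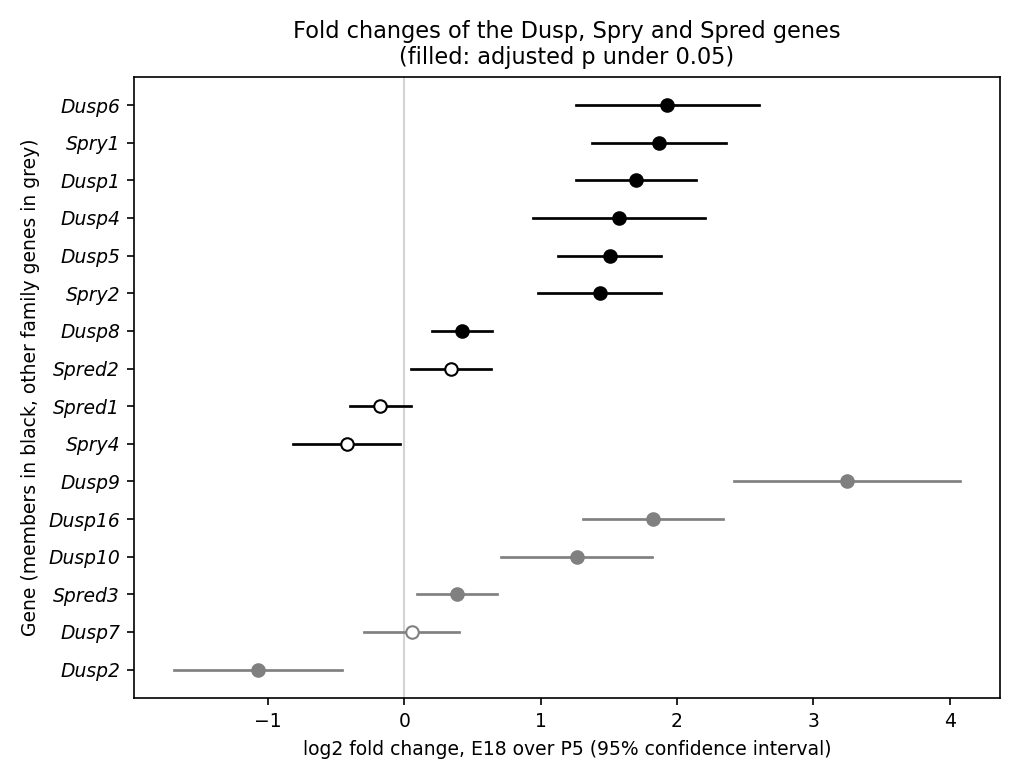
Log2 fold changes of E18 over P5 with 95% confidence intervals for the 10 members (black) and for 6 other Dusp and Spred genes (grey), filled where the adjusted p was under 0.05. The black points of Dusp1, Dusp4, Dusp5, Dusp6, Spry1 and Spry2 lie between 1.43 and 1.93, and Dusp8 lies at 0.42. Spred2, Spred1 and Spry4 are open points at 0.34, -0.18 and -0.43.

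Spry1 and Spry2 were higher at E18, whereas Spry4 had higher mean CPM at P5 without passing the test. Sprouty proteins are phosphorylated when growth factor receptors are engaged and then restrain the relay to ERK. Spry1 (ENSMUSG00000037211.12, chr3:37639947-37644598, plus strand) had the lowest level per length of the members at P5. It had 8.19, 7.57 and 5.97 CPM in E18 replicates 1, 3 and 4 and 2.32, 2.07 and 1.56 CPM in the P5 samples. These values rest on 541 to 849 reads per sample at E18 and 147 to 206 at P5. The lowest E18 sample exceeded the highest P5 sample by more than 2-fold, and the E18 over P5 log2 ratio from the fit was 1.87 with an SE of 0.216 and an edgeR adjusted p of 0.000507.

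Spry2 (ENSMUSG00000022114.5, chr14:105891947-105896819, minus strand) had 17.97, 17.2 and 10.9 CPM in E18 replicates 1, 3 and 4, and 6.00, 5.82 and 5.24 CPM in the P5 samples. E18 replicate 4 was the lowest of its age but still above every P5 sample. The E18 over P5 log2 ratio from the fit was 1.43 with an SE of 0.198 and an edgeR adjusted p of 0.00100. Within E18, Spry2, Spry1 and Dusp6 followed the same order of samples as the summed progenitor and dividing-cell markers given above. The part of these markers in the members' values was not tested. In E18 replicate 4, whose progenitor markers were close to those of the P5 samples, Spry2 differed from the P5 samples by 0.95 on the log2 scale (adjusted p = 0.0493 by edgeR, with the spread of that lone E18 sample taken from the P5 samples), Spry1 by 1.60 (adjusted p = 0.0145) and Dusp6 by 1.76 (adjusted p = 0.0151).

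Spry4 (ENSMUSG00000024427.7, chromosome 18, 38586247 to 38601415, minus strand) had 12.2, 9.16 and 11.3 CPM at E18 and 17.6, 11.97 and 14.3 CPM at P5. The highest E18 sample lay above the lowest P5 sample. Its log2 fold change of -0.43 had a 95% interval of -0.82 to -0.03 before adjustment and did not pass after it, with an SE of 0.174 and an edgeR adjusted p of 0.0765. It did pass without P5 replicate 8, the lowest P5 sample, with a log2 fold change of -0.57 (adjusted p = 0.0208).

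Spred1 and Spred2, membrane proteins that bring the Ras inhibitor neurofibromin to Ras, did not pass the test. Spred1 (ENSMUSG00000027351.14, chr2:117121374-117182279, plus strand) had 135, 136 and 116 CPM at E18 and 137, 156 and 145 CPM at P5. E18 values were lower throughout, but E18 replicate 3 and P5 replicate 6 almost touched. The log2 ratio was -0.18 with an SE of 0.0979 and an edgeR adjusted p of 0.173, and its 95% interval, -0.40 to 0.05, does not reach the rises of Spry1 or Spry2. Spred2 (ENSMUSG00000045671.17, chr11:19924375-20024026, plus strand) had 13.7, 12.1 and 14.1 CPM at E18 and 10.1, 11.7 and 9.71 CPM at P5. Its ages did not overlap, and its log2 ratio was 0.34 with an SE of 0.129 and an edgeR adjusted p of 0.0596, with a 95% interval of 0.05 to 0.64. Spred2 passed without P5 replicate 8 (adjusted p = 0.0211) and in DESeq2 (adjusted p = 0.0281).

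To ask whether members of a family differed from each other in how they changed, the log2 ratio of a pair was taken within each sample. The 6 pairs were chosen after the values were seen, so the differences are given as a description without a test. The log2 ratio of Spry1 to Spry4 was -0.57, -0.27 and -0.92 in the E18 samples and -2.92, -2.53 and -3.19 in the P5 samples, a difference of 2.29. For Spry2 over Spry4 the difference between ages was 1.82, for Dusp6 over Dusp8 it was 1.62, for Dusp4 over Dusp8 1.26, for Spry2 over Spred1 1.58 and for Spred2 over Spred1 0.52. In all 6 pairs the ratios of the E18 samples lay above those of the P5 samples. Each pair was written with the gene of higher fold change first, so this direction was fixed by the choice.

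Because CPM favors long transcripts, the members were ordered by CPM per kilobase of exon, using the merged GENCODE exons of mm10. At E18 the highest level was that of Dusp4 at 44.0 ± 3.18 (SD, n = 3), followed by Dusp8 at 32.9 ± 2.96, Dusp6 at 20.4 ± 2.13, Spred1 at 19.0 ± 1.68 and Dusp1 at 11.98 ± 0.578. Spry2 had 7.36 ± 1.87, Dusp5 4.06 ± 0.0900, Spred2 2.88 ± 0.222, Spry1 2.49 ± 0.393 and Spry4 2.29 ± 0.328. The ranges of Dusp6 and Spred1 overlapped, as did those of Spred2 with Spry1 and of Spry1 with Spry4, so these neighbors were not separated. At P5 the order began with Dusp8 at 24.6 ± 1.49 and Spred1 at 21.5 ± 1.37, and Dusp4 had dropped to the third place at 14.7 ± 6.17. Dusp6 (5.36 ± 2.25), Dusp1 (3.69 ± 1.09), Spry4 (3.07 ± 0.595), Spry2 (2.73 ± 0.190) and Spred2 (2.27 ± 0.222) followed, each overlapping the next. Dusp5 at 1.43 ± 0.246 and Spry1 at 0.683 ± 0.133 came last and were separate from their neighbors. These levels take every annotated exon as transcribed, which RGCs may not do.

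The same per-length levels give the makeup of each family. Summed over 10 MAPK phosphatase genes, the level was 133 ± 2.73 CPM per kilobase at E18 and 61.7 ± 9.91 at P5 (SD, n = 3 samples each), with no overlap. Dusp4 made up 33.0 ± 1.79% of that sum at E18 and 23.2 ± 7.04% at P5, and Dusp6 made up 15.4 ± 1.87% and 8.41 ± 2.54%. Dusp8 made up 24.7 ± 1.71% at E18 and 40.6 ± 6.29% at P5, although its own level was lower at P5. The Sprouty and Spred genes together summed to 39.6 ± 3.31 CPM per kilobase at E18 and 34.5 ± 1.63 at P5, whose ranges overlapped. Within that sum Spred1 held 48.1 ± 1.28% at E18 and 62.4 ± 2.53% at P5, and Spry2 held 18.42 ± 3.37% and 7.90 ± 0.479%.

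**Figure D3:**
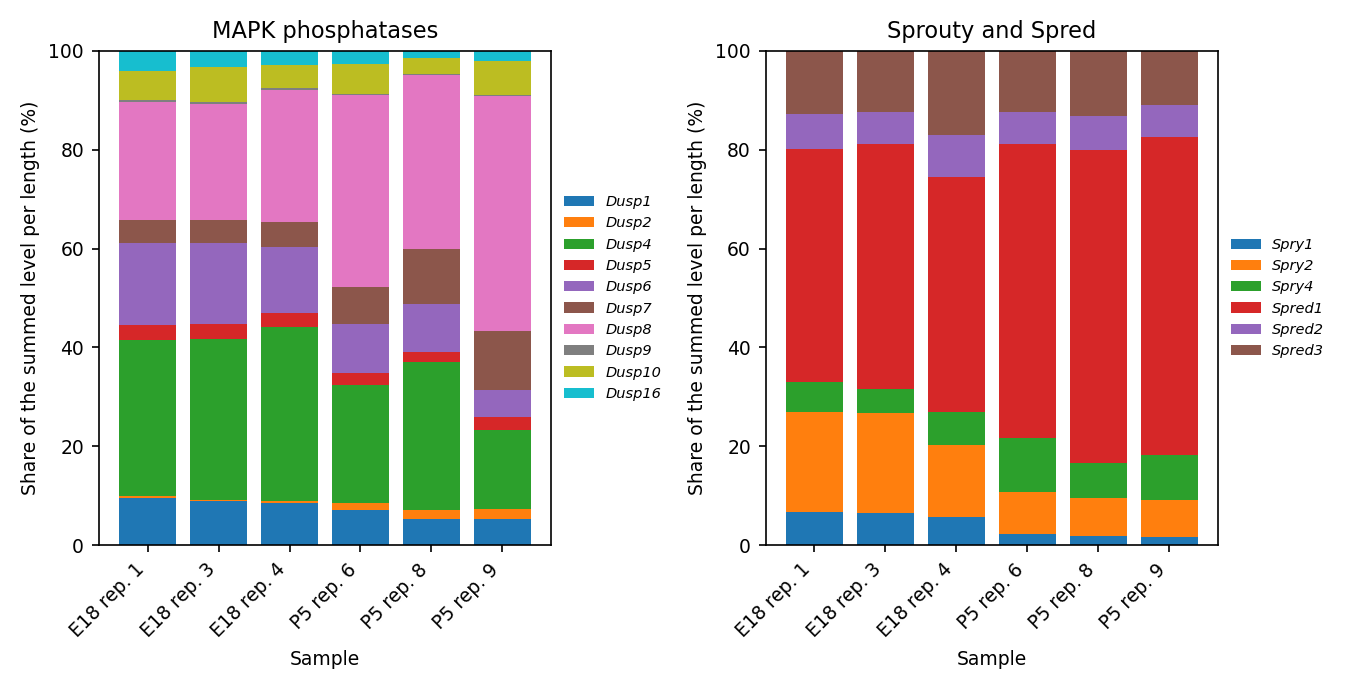
Share of each gene in the summed CPM per kilobase of exon, in percent, for 10 MAPK phosphatase genes (left) and 6 Sprouty and Spred genes (right) in each of the 6 samples. The Dusp8 segment spans 23.6% to 26.7% at E18 and 35.3% to 47.5% at P5, and the Spred1 segment is wider at P5 as well.

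Other genes of the 3 families were examined to see how far the pattern extended. Of the 7, Spry3 had no read in any sample, and 4 of the 6 tested were higher at E18, against 20.8% of all genes. A further 1 was lower, against 22.5%. The number higher was 3 when any sample but P5 replicate 8 was left out. Dusp16, a phosphatase of JNK and p38 that was not among the members, had 42.1, 32.8 and 30.8 CPM at E18 and 13.7, 8.14 and 8.00 CPM at P5, with a log2 fold change of 1.82 (adjusted p = 0.000691 by edgeR). Dusp10, which acts on the same kinases, had 24.0 ± 4.65 CPM at E18 and 10.01 ± 3.20 CPM at P5 (SD, n = 3 samples each; log2 fold change 1.26, adjusted p = 0.00411). Dusp9, a cytoplasmic ERK phosphatase, was scarce, with at most 0.994 CPM at E18 and 0.142 CPM at P5, and differed by 3.25 on the log2 scale (adjusted p = 0.000462). Spred3 was slightly higher at E18 (log2 fold change 0.39, adjusted p = 0.0392). Dusp2, a nuclear phosphatase best known from immune cells, was lower at E18, at 1.03 ± 0.2799 against 2.17 ± 0.345 CPM (log2 fold change -1.08, adjusted p = 0.0132), a call that was lost without E18 replicate 3. Dusp7, the remaining cytoplasmic ERK phosphatase, overlapped between the ages at 21.5 ± 1.94 and 20.7 ± 4.08 CPM (log2 fold change 0.05, 95% interval -0.30 to 0.40).

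Genes of the relay that these inhibitors act on are set beside all genes tested, of which 20.8% were higher at E18 and 22.5% lower. Of 20 genes of the relay from Grb2 to the ribosomal S6 kinases, 3 were higher at E18 and 2 lower. Their median log2 fold change was 0.02. The number lower was 4 without P5 replicate 8 and in DESeq2, and 1 without E18 replicate 1, E18 replicate 3 or P5 replicate 9. Among called genes averaging at least 5 CPM, the rule for naming genes in this and the following lists, Shc1, an adaptor of receptor tyrosine kinases, rose furthest (19.3 ± 3.09 against 11.98 ± 0.405 CPM, log2 fold change 0.69, adjusted p = 0.00487 by edgeR), and Map2k1, which encodes a MEK, fell furthest (58.6 ± 2.83 against 91.8 ± 27.6 CPM, log2 fold change -0.65, adjusted p = 0.0263). Mapk3, which encodes ERK1, had a log2 fold change of 0.34 that did not pass (adjusted p = 0.0872 by edgeR).

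Along the route to JNK and p38, 5 of 16 genes were higher at E18 and 3 lower, with a median of 0.01. The number higher was 3 without E18 replicate 3 or 4. Map2k6, a kinase of p38, had 24.9 ± 2.11 CPM at E18 and 10.8 ± 2.12 CPM at P5 (SD, n = 3 samples each; log2 fold change 1.20, adjusted p = 0.000810), whereas Mapk9, which encodes JNK2, had 203 ± 10.8 and 361 ± 42.6 CPM (log2 fold change -0.83, adjusted p = 0.000705). Of 15 other inhibitors of Ras to ERK signaling that were tested, 4 were higher and 2 lower. They ranged from Rasal2, a Ras GTPase-activating protein (log2 fold change 0.86, adjusted p = 0.000462), to Ptprr, a tyrosine phosphatase that acts on ERK (log2 fold change -1.18, adjusted p = 0.000988). The number higher in this list was 8 without P5 replicate 8 and 2 without E18 replicate 3 or P5 replicate 6.

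Upstream of the relay, 5 of 20 receptor tyrosine kinase genes were higher at E18 and 4 lower, against 20.8% and 22.5% of all genes. The median of the 20 was 0.33 and became -0.18 without E18 replicate 1. Without E18 replicate 1 or 3, 2 were lower. Kdr, the receptor for vascular endothelial growth factor, had 69.5, 62.9 and 14.1 CPM in E18 replicates 1, 3 and 4 and 4.79 to 11.3 CPM at P5 (log2 fold change 2.68, adjusted p = 0.00545). Of 9 endothelial and pericyte markers tested, Kdr was the 1 called higher. Pecam1, Tek and Rgs5 were lower at E18 (log2 fold changes -1.81, -1.80 and -4.36, adjusted p = 0.00123, 0.00239 and 0.000166), and every marker but Kdr was at most 3.64 CPM in every sample.

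Transcripts that ERK induces were mixed. Of 10 ERK output genes that are not members, 3 were higher and 1 lower, against 20.8% and 22.5% of all genes. The list's median of 0.56 became 0.31 when E18 replicate 1 was left out. In this list 1 was higher and 0 were lower without P5 replicate 6 or P5 replicate 9. The number lower was also 0 without E18 replicate 3 or 4, and it was 2 without P5 replicate 8. Ccnd1, which encodes cyclin D1, had 146, 34.5 and 14.2 CPM in E18 replicates 1, 3 and 4. This order was shared with the summed progenitor and dividing-cell markers. At P5, Ccnd1 had 5.54 to 10.9 CPM (log2 fold change 2.94, adjusted p = 0.0129 by edgeR). Etv4 and Etv5, Ets factors often read beside Dusp6 and the Sproutys, did not pass (log2 fold changes 1.16 and 0.51, adjusted p = 0.0523 and 0.409 by edgeR), and Etv1, of the same group of Ets factors, was lower at E18 (0.744 ± 0.397 against 2.31 ± 1.24 CPM, log2 fold change -1.64, adjusted p = 0.0236). Of 20 immediate-early genes, which stimuli induce without new protein synthesis, 9 were higher and 2 lower, against 20.8% and 22.5% of all genes. Their median was 0.63. Without E18 replicate 1, 7 were higher and the median was 0.50. The number lower was 1 without E18 replicate 3, E18 replicate 4 or P5 replicate 6. Among the immediate-early genes averaging at least 5 CPM, Ier2 rose furthest (10.1 ± 3.06 against 4.02 ± 1.03 CPM, log2 fold change 1.32, adjusted p = 0.00472 by edgeR). Npas4, a gene induced by neuronal activity, fell furthest (9.40 ± 1.73 against 23.9 ± 3.05 CPM, log2 fold change -1.35, adjusted p = 0.000642 by edgeR).

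**Figure D4:**
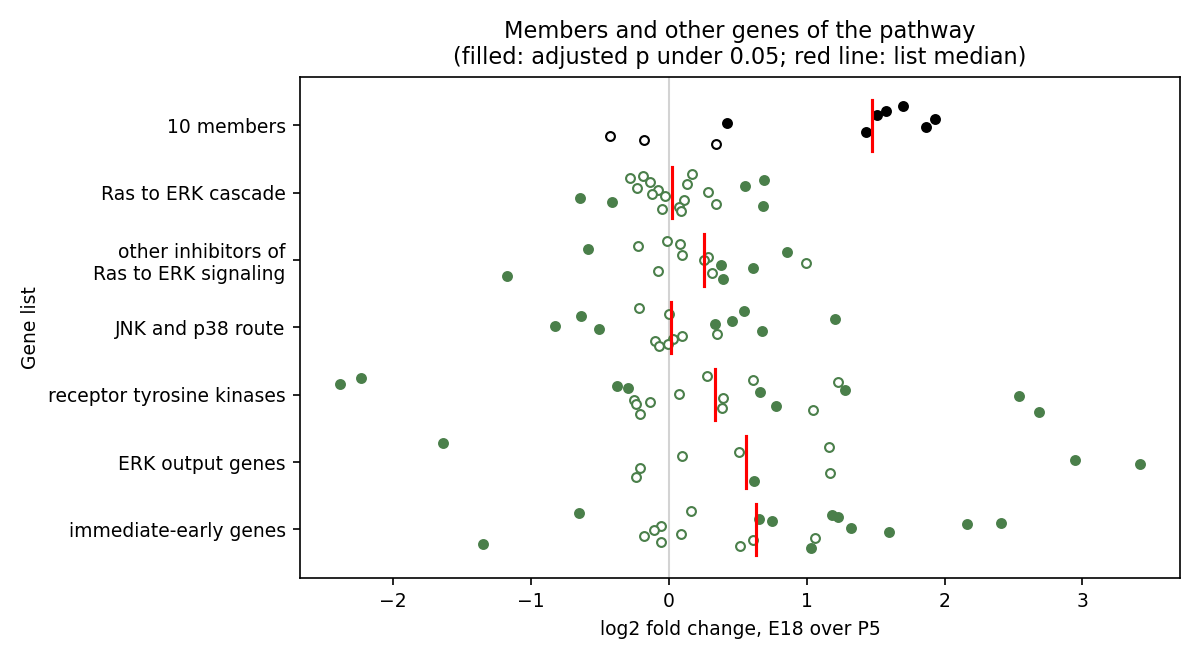
Log2 fold changes of E18 over P5 for the 10 members (black) and for the genes of 6 pathway lists (green), filled where the adjusted p was under 0.05, with a red line at each list's median. The median is 1.47 for the members and between 0.01 and 0.63 for the other lists, all of which hold genes on both sides of 0.

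The samples of each age also differed among themselves. Among the 7 members that were higher at E18, P5 replicate 9 was the lowest P5 sample in 5. The immediate-early genes summed to 316 CPM in that sample, against 474 and 399 CPM in P5 replicates 6 and 8 and 476 to 607 CPM at E18. Thy1, the protein used for panning, was highest in P5 replicate 9 at 690 CPM, against 499.5 and 469 CPM in the other P5 samples and 212 to 312 CPM at E18. The part of either in the members' values was not tested. Without P5 replicate 9 all 7 members still passed by edgeR, as they did without each other sample in turn. With E18 replicate 4 as the lone E18 sample, 6 of the 7 passed, all but Dusp8 (log2 fold change 0.57, adjusted p = 0.0679).

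The genes whose pattern across the 6 samples was nearest to that of Dusp6, the member with the highest fold change when all samples were included, were sought among 9717 genes averaging 10 CPM or more. By root mean square distance of centered log2 CPM, they were Csrp2 (0.118), Utp14b (0.145) and Rassf2 (0.155). Csrp2 had 47.1, 41.4 and 36.5 CPM in the E18 samples and 15.4, 13.2 and 6.81 CPM in the P5 samples, with P5 replicate 9 lowest as for Dusp6. For Spry4, the member with the lowest fold change, the nearest genes were 2810025M15Rik (0.0745), Gm561 (0.0955) and Rpl22l1 (0.0968).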

How the data were processed

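Libraries were depleted of ribosomal RNA per the labels' protocol, although the molecule is labelled as polyA RNA. According to the study's methods, STAR served for alignment to mm10 and HT-seq for counting over RefSeq gene models. CASAVA 1.8.2 is named in the submitters' processing notes. The raw counts per gene that the authors deposited were used here. Columns were assigned to samples by their titles, and the E18 replicate 1 column also carries the numbers 2 and 5. It may pool several preparations, which the sources used here do not state, and it was counted as 1 replicate. The deposited normalized counts (a signal scaled by the authors for library size), the log2 fold changes, the p-values and the rank score of the authors' edgeR comparison were not used. Read strand and multiply mapped reads are not described in the sources used here.

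Counts were filtered (filterByExpr), scaled by TMM and fitted in edgeR 4.0.16 (R 4.3.3) with glmQLFit and glmQLFTest over 16449 genes. Benjamini-Hochberg adjusted p-values under 0.05 were called. The scripts were tested on simulated data. Replicates of an age differed by more than sampling noise (chi-square per degree of freedom 32.1 to 149), so the spread between samples sets the precision. Gene coordinates and exon lengths are from GENCODE M21 (GRCm38, mm10), matched by symbol. Members and lists were chosen with earlier results of these data known. The other genes named are the other family members, the largest rise and fall past the threshold in each list at a mean of 5 CPM or more, and the nearest patterns. Some genes that this rule names are not reported here. Srf, Ergic1, Mapk3, Etv1, Etv4, Etv5, Pecam1, Tek, Rgs5, Tfap2b, Gad1, Calb2, Pax6 and Thy1 were named after their values were seen. Alternatives were DESeq2 1.42.0, upper-quartile normalization, no filter, the likelihood ratio test and leaving out samples.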

Additional observations from a re-analysis of the deposited data

How the results depend on the processing

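All 7 members that were higher at E18 stayed past the threshold in DESeq2, with upper-quartile normalization, without the filter, with the likelihood ratio test and without each sample in turn. The number of members higher was 7 or 8 under these alternatives. The number lower was 0 except without P5 replicate 8, where it was 1 (Spry4), so leaving out samples gave 0 to 1. The number of genes called among all genes was 7135, and it ranged from 4575 without E18 replicate 3 to 8796 without P5 replicate 8. In an alternative chosen after seeing the data, E18 replicate 4 alone against the P5 samples, it was 1633 with 2 samples fewer, and 6 members were higher. Spred2 passed in 2 of its 11 alternatives, Spry4 in 1 and Spred1 in 0. Scaling by upper quartile or by DESeq2 moved the median log2 fold change of all genes to 0.01. No member reversed its direction under any of these alternatives. No paired analysis was possible because the ages share no replicate number. With 3 samples per age, the width of the intervals limits what can be said of Spry4, Spred1 and Spred2.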
